A study of Homo sapiens with 6 samples.

Results

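The genes described here are 38 genes of mitosis and the G2/M step of the cell cycle, followed in REH, an established line of human B-cell precursor leukemia with the ETV6/RUNX1 fusion. A gene was taken as measured where a catalogue probe of the array bore a RefSeq transcript of that gene. This gave 44 probes for 37 of the 38 genes, out of 57176 probes and 19721 named genes on the array; no probe matched UBE2C, a ubiquitin-conjugating enzyme of mitotic exit, which has no value below. All 44 probes passed the filter on dim probes, and the probe that stands for each gene (the brightest where a gene had several) was well above background on all 6 arrays.

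The study profiled 3 control and 3 knockdown samples of REH cells, 1 array each, to find transcripts that depend on the fusion. Knockdown cells carried a lentiviral short hairpin RNA (shRNA) against the ETV6 portion of the fusion transcript. Control cells carried a non-targeting shRNA, which per the study's methods was a second ETV6 shRNA that does not act on the fusion. All 6 samples share the loss of the other ETV6 allele that REH cells have, the same vector with a GFP marker, and sorting for GFP after transduction. The groups thus stand for 1 cell line and 1 active shRNA. Replicates carry the numbers 1, 2 and 3 in both groups, and the genes were compared in 2 ways, knockdown against control and replicate 1 of both groups against replicates 2 and 3. Both comparisons use the same 6 arrays.

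Cells enter mitosis when CDK1, bound to cyclin A or B, is switched on, with Polo-like and Aurora kinases reinforcing the step. The spindle then captures chromosomes through their kinetochores, and the spindle checkpoint holds back the anaphase-promoting complex (APC/C) until every chromosome is attached, after which securin and cyclin B are destroyed, separase cuts cohesin, and the central spindle places the cleavage furrow. Many of these genes are transcribed together late in the cell cycle, held down by the DREAM complex in resting and early cycling cells and switched on by B-MYB and FOXM1, through promoter elements called the cell cycle genes homology region (CHR) and through CCAAT boxes bound by NF-Y. In a bulk sample, fewer cells in G2 and mitosis and less of these RNAs per cell cannot be told apart.

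The promoters of 8 of these genes are shown because the members were chosen as one transcriptional program, and these 8 hold the 5 genes that passed the test in the replicate comparison together with PLK1, CDC20 and CCNB1. Each line runs 5′ to 3′ on the coding strand from 120 bases before to 10 bases after a RefSeq transcription start of build GRCh38.p14. Capitals mark a CHR (TTTGAA or TTCGAA, or the reverse complement TTCAAA) or a CCAAT box (CCAAT, or ATTGG on the other strand). Only these spellings of a CHR were searched, here and in the counts below. A line without a marked CHR may still hold one of another spelling. The regions, in the order of the lines, are chr1:43358861-43358990 on the plus strand for CDC20, chr2:110678054-110678183 on the minus strand for BUB1, chr4:121823874-121824003 on the minus strand for CCNA2, chr5:69167030-69167159 on the plus strand for CCNB1, chr5:138178992-138179121 on the plus strand for KIF20A, chr10:60778358-60778487 on the plus strand for CDK1, chr12:6851277-6851406 on the minus strand for CDCA3 and chr16:23678769-23678898 on the plus strand for PLK1. CDK1 has 2 RefSeq starts, and the one with more matches is shown.
CDC20: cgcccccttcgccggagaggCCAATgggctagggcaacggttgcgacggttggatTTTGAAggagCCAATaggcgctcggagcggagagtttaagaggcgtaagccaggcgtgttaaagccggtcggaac
BUB1: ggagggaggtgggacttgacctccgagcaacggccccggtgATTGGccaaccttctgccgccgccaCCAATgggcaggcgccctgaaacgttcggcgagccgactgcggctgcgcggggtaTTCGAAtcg
CCNA2: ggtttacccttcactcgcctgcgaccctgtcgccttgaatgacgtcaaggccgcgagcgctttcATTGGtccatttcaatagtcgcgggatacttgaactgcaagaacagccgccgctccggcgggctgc
CCNB1: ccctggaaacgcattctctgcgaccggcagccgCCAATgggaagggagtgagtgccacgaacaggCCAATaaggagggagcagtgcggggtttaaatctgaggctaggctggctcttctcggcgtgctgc
KIF20A: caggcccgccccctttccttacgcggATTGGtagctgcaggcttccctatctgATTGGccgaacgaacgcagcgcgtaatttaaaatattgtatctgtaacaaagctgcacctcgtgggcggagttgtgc
CDK1: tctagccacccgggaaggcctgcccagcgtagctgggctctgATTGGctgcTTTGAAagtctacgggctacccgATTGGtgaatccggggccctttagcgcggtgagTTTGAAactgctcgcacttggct
CDCA3: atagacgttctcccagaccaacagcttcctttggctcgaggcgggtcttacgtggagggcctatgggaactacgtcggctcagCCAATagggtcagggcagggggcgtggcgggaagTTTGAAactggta
PLK1: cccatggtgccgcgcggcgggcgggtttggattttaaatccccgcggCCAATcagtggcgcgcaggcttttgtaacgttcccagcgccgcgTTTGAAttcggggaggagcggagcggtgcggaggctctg

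Of the 38 genes, 32 had a promoter of 300 bases in the RefSeq table, from 250 before to 50 after the start. TTTGAA on either strand stood in the promoters of 22 of the 32 (68.8%), beside 14% of the 10871 genes with a probe that passed the filter and 18.2% of all 27305 genes of the table. CCAAT on either strand stood in 25 of the 32 (78.1%, beside 43.1% and 39.7%), and 17 of them (53.1%) held at least 2 CCAAT boxes, beside 16.2% and 12.9%. A CHR of either spelling together with CCAAT was found in 19 of the 32 (59.4%), beside 6.61% and 7.85%. GTAAACA, the letters of a forkhead site, stood in 1 of the 32 (3.12%), beside 3.4% and 4.19%. In 10 of the 32 (31.2%) a forward TTTGAA began between 35 and 15 bases before the start, beside 4 of 56 other mitosis genes (7.14%) and 0.635% of genes with a retained probe; that window was chosen after the positions of the 32 were seen. The 56 other mitosis genes in the table, a list used below, held these letters too, with TTTGAA in 29 (51.8%), CCAAT in 40 (71.4%) and a CHR with CCAAT in 29 (51.8%). Among 31 genes of S phase, also used below, TTTGAA stood in 1 (3.23%) and CCAAT in 19 (61.3%). These are counts of letters in a fixed window, and they show no binding.

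The arrays shared 1 slide and 1 scan, and no probe was saturated. Each array had between 45.9% and 51.0% of its probes well above background. The ETV6 probe read 8.11 ± 0.23 in control and 7.41 ± 0.11 in knockdown (mean ± SD, n = 3 each, on the generalised log2 scale used throughout). The difference was -0.70 (SE 0.14, limma adjusted p = 0.0513), with all knockdown arrays below all control arrays. Whether this probe lies in the part of ETV6 that the fusion keeps was not checked. Of 12 B-cell precursor markers, 11 passed the filter, with a summed linear level of 237356 to 248182 in control and 251852 to 330248 in knockdown. Of the markers of other lineages, those that passed were 4 of 6 T cell, 2 of 7 myeloid, 2 of 4 erythroid and 2 of 7 epithelial and kidney markers, with summed levels of 461 to 703 for T cell, 326 to 408 for myeloid, 283 to 317 for erythroid and 1193 to 1667 for epithelial markers over the 6 arrays; CD3G, EPCAM and CDH1 did not pass. With the replicate block 4 of the 15 probes of the B-cell precursor list rose in knockdown, beside 3.78% of all probes called. Scaling to spike-in RNA in place of the bulk of probes moved the median of all probes to 0.50 in knockdown against control and to -0.42 in replicate 1 against replicates 2 and 3, so every difference below is relative to the bulk of transcripts.

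Fusion knockdown left no mitosis gene past the test, while most read slightly higher. None of the 44 probes was called at a limma adjusted p under 0.05, where 1.74% of all 27490 retained probes were called (0.458% higher and 1.28% lower, or 126 and 352 probes; 321 and 61 with spike-in scaling). At an unadjusted p under 0.05, 5 of the 44 (11.4%) were higher and 0 lower, beside 5.72% of all probes higher and 6.82% lower; they belong to TPX2, CDC20, PLK1 (both probes) and a further probe of MKI67. The knockdown mean was above the control mean for 33 of the 37 genes (89.2%, beside 49.7% of all probes), with a median difference over the 44 probes of 0.14, beside -0.0015 over all probes. That median moved with single arrays, to 0.073 without control replicate 1, 0.076 without knockdown replicate 3, 0.23 without control replicate 3 and 0.24 without knockdown replicate 1. The intervals were short, and for 36 of the 37 genes the 95% interval lay within 1 log2 unit either way, CDCA3 being the exception.

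The pairs of equal replicate number gave the same picture at different sizes. In pair 1, 28 genes were higher in knockdown and 9 lower, with a median of 0.08, beside 48.5% of all probes higher. In pair 2, where CDCA3 had no control value, 34 were higher and 2 lower, with a median of 0.21, beside 49.7% of all probes higher. In pair 3, 27 were higher and 10 lower, with a median of 0.16, beside 50.9% of all probes higher. Higher in all 3 pairs were 20 of the 37 (beside 20.8% of all probes), and CDK1 was lower in all 3 (beside 21.4%). TPX2 was the single gene whose groups did not overlap, beside 9.02% of all probes higher without overlap and 9.88% lower. With the replicate number as a block, 1038 of all probes were called (3.78%) and still 0 of the 44. The lean towards knockdown depended on which control arrays entered: control replicates 1 and 2 lie in a slide row of their own, and with the row as a term, which leaves control replicate 3 as the only control, the median of the 44 probes was -0.035.

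**Figure D1:**
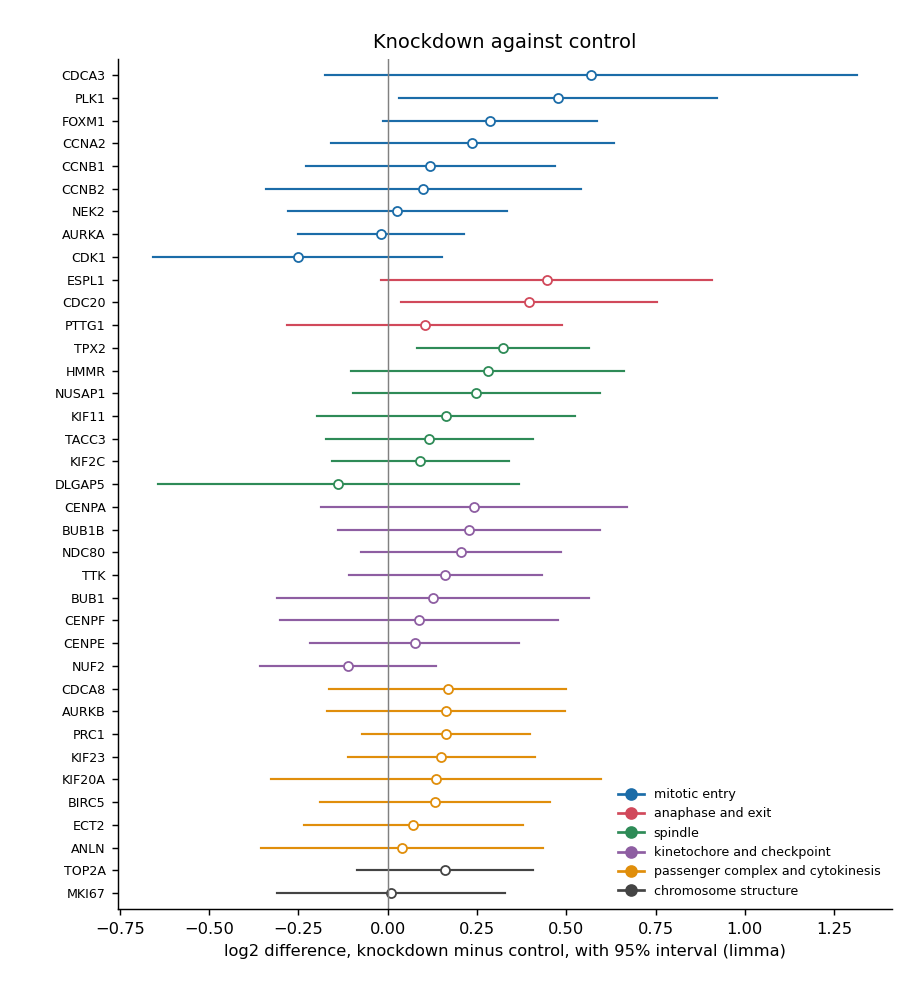
Difference between knockdown and control for 37 mitosis and G2/M genes on the generalised log2 scale, with 95% intervals from limma over 6 arrays, ordered by role. Open points mark genes that did not pass the test, and all 37 are open; the points lie between -0.25 (CDK1) and 0.57 (CDCA3).

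Replicate 1 of both groups read lower for these genes than replicates 2 and 3. All 44 probes had a negative difference, where 48.8% of all probes did, and their median was -0.26 (-0.17 without knockdown replicate 1), beside 0.0057 over all probes. At a limma adjusted p under 0.05, 5 of the 44 (11.4%) fell and 0 rose, beside 5.69% of all probes called, 2.03% that fell and 3.66% that rose. The balance of all calls depended on the processing, with 1005 higher and 558 lower here. It was 335 and 429 with 75th percentile scaling of the processed signal, 1220 and 1105 with normexp background correction and quantile scaling, and 122 and 581 with spike-in scaling. Only the spike-in setting changes the scaling alone. The 5 were BUB1 (1.41-fold lower), CDCA3 (1.68-fold), CDK1 (1.35-fold), CCNA2 (1.35-fold) and KIF20A (1.41-fold). At an unadjusted p under 0.05, 20 of the 44 (45.5%) were lower, beside 10.4% of all probes. The 2 replicate 1 arrays lay below the other 4 for 20 of the 37 genes, beside 13.6% of all probes, and below both others of their own group for 26, beside 20.5%.

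The lower values stood in each group taken alone. Within control, 36 of 37 genes were lower in replicate 1 (beside 47.2% of all probes), with a median of -0.19, PLK1 being the exception (0.05). Within knockdown, 34 of 37 were lower (beside 49.9% of all probes), with a median of -0.37, the exceptions being NEK2 (0.26), TTK (0.08) and TOP2A (0.05). The interaction of group with replicate 1 called 0.418% of all probes and 0 of the 44, with 3 of them at an unadjusted p under 0.05, beside 8.32% of all probes. Those were NEK2 (0.52, adjusted p = 0.583), a second probe of PLK1 (-0.62, adjusted p = 0.593) and a second probe of KIF23 (0.53, adjusted p = 0.601). The calls themselves were few and close to the threshold: with the replicate number as a block, where 917 of all probes were called (3.34%), only BUB1 (adjusted p = 0.0483) and KIF20A (0.0486) remained, and leaving out any 1 of the 6 arrays left 0 or 1 of the 44 probes called. With 75th percentile scaling of the processed signal, which changes the signal and the scaling together, and with no filter on dim probes 0 of the 44 were called. With the deposited values 2 were called. The arrays of both replicates 1 also read high for genes of the amino acid and stress response, as given further on.

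**Figure D2:**
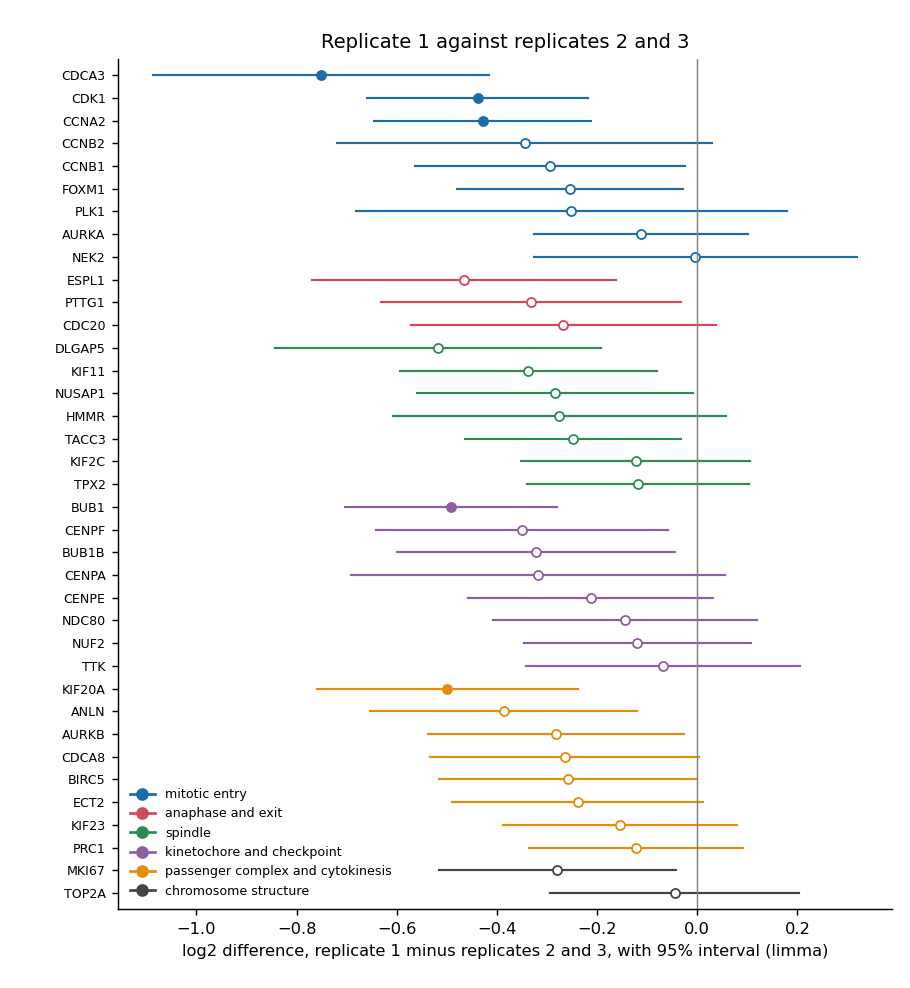
Difference between replicate 1 and replicates 2 and 3 with group in the fit, for 37 mitosis and G2/M genes on the generalised log2 scale, with 95% intervals from limma over 6 arrays. Filled points mark the 5 genes called at an adjusted p under 0.05, and every point lies below 0, from -0.75 (CDCA3) to -0.0038 (NEK2).

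Array by array, the median deviation of the 37 genes from their own means was -0.20 on control replicate 1, -0.11 on control replicate 2 and 0.11 on control replicate 3. On the knockdown arrays it was -0.15, 0.12 and 0.25 for replicates 1, 2 and 3. Control replicate 1 was the lowest array for 23 genes and knockdown replicate 3 the highest for 25. Control replicate 2 thus lay closer to the replicate 1 arrays than to knockdown replicate 2 for this program, and over all probes the medians of the 6 arrays lay between -0.0085 and 0.0095.

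**Figure D3:**
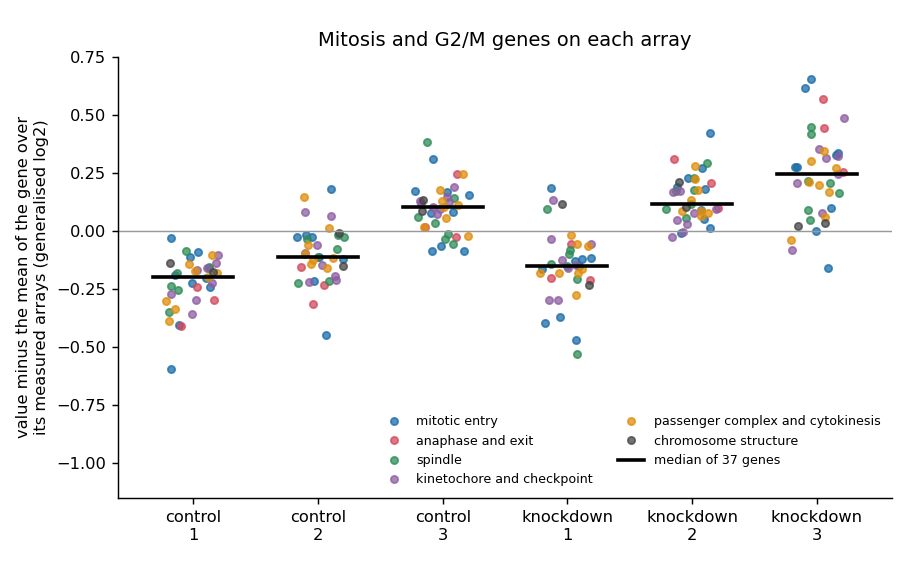
Each point is 1 gene on 1 array, as its generalised log2 value minus its own mean over its measured arrays, coloured by role; black bars are medians. The bars of control replicates 1 and 2 and knockdown replicate 1 lie below 0 and those of the other 3 arrays above; CDCA3 has no value on control replicate 2.

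Regulators of mitotic entry held 3 of the 5 calls of the replicate comparison. Of the 9 genes, 7 were higher in knockdown (median 0.12) and all 9 were lower in replicate 1 (median -0.29). CCNA2 encodes cyclin A2, the partner of CDK2 and CDK1 in S phase and G2. It read 10.80, 11.18 and 11.28 in control replicates 1, 2 and 3, and 11.04, 11.39 and 11.54 in knockdown replicates 1, 2 and 3. Each knockdown array was above the control array of its number, but the groups overlapped, and the difference of 0.24 (SE 0.17, adjusted p = 0.636) did not pass. This difference was 0.092 without control replicate 1 and 0.38 without knockdown replicate 1. Replicate 1 lay below all other arrays, by -0.43 (SE 0.09, adjusted p = 0.0419, and 0.0588 with the replicate block). CDK1, the mitotic kinase itself, read 13.05, 13.34 and 13.47 in control and 12.69, 13.26 and 13.16 in knockdown. It was the one gene of the entry group lower in knockdown in every pair, with a difference of -0.25 (SE 0.18, adjusted p = 0.62) and overlapping groups. That difference was -0.37 without control replicate 1 and -0.080 without knockdown replicate 1. In replicate 1 CDK1 fell by 0.44 (SE 0.09, adjusted p = 0.0417, and 0.0745 with the block), the knockdown replicate 1 array being the lowest of all.

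CDCA3, a mitotic entry factor that promotes the destruction of WEE1, read 10.77 and 11.28 in control replicates 1 and 3, its spot on control replicate 2 having been flagged as an outlier, and 10.97, 11.79 and 12.02 in knockdown. The fits for this gene thus rest on 5 arrays. It had the widest difference of the 37 in either comparison, 0.57 in knockdown (SE 0.31, adjusted p = 0.527) and -0.75 in replicate 1 (SE 0.14, adjusted p = 0.0344, and 0.082 with the block). The knockdown difference of CDCA3 was 0.32 without control replicate 1 and 0.88 without knockdown replicate 1. FOXM1, a transcription factor for late cell cycle genes, read 11.17, 11.27 and 11.30 in control and 11.27, 11.66 and 11.66 in knockdown. Its groups overlapped only through knockdown replicate 1, and neither the knockdown difference of 0.29 (SE 0.13, adjusted p = 0.425) nor the replicate difference of -0.25 (SE 0.10, adjusted p = 0.163) passed. PLK1, Polo-like kinase 1, read 10.64, 10.39 and 10.78 in control and 10.71, 11.07 and 11.46 in knockdown. Knockdown replicates 2 and 3 stood above every control array and replicate 1 within their range, for a difference of 0.48 (SE 0.19, adjusted p = 0.362), and a second PLK1 probe gave 0.44 (adjusted p = 0.358). Its replicate difference of -0.25 (SE 0.18, adjusted p = 0.451) came from the knockdown arrays, -0.55 there and 0.05 within control. The rest of the entry group, CCNB1 and CCNB2 (the B cyclins that activate CDK1), AURKA (the centrosome kinase) and NEK2 (a kinase of centrosome splitting), lay between -0.02 and 0.12 in knockdown and between -0.34 and -0.0038 in replicate 1.

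**Figure D4:**
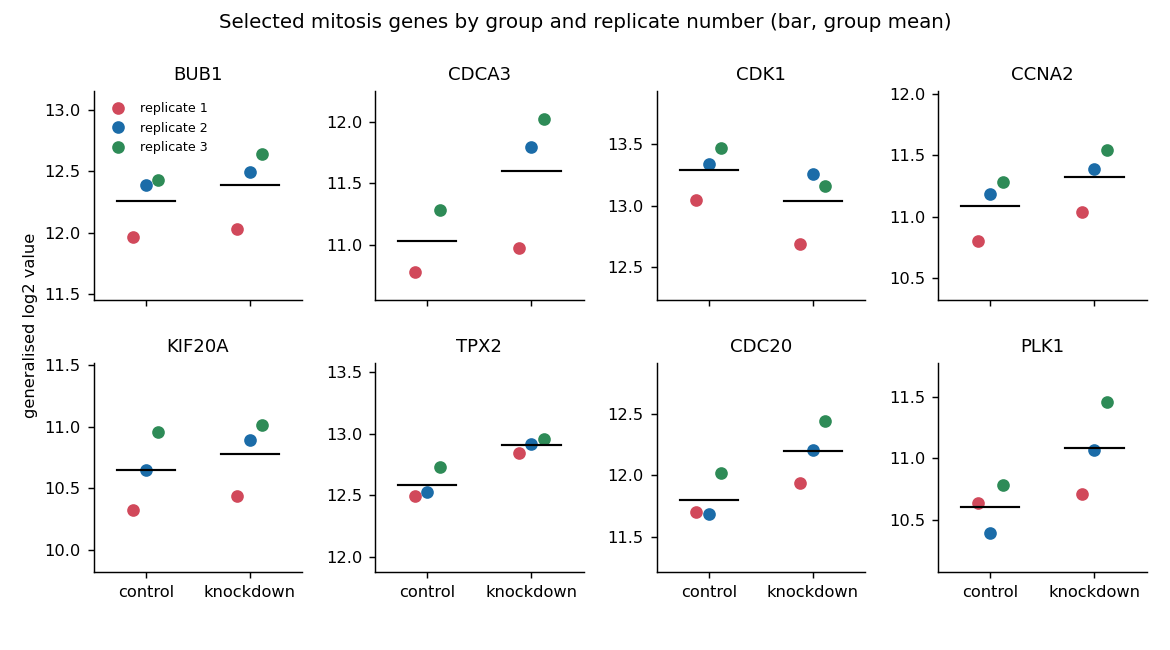
Generalised log2 values of 8 genes on each array, by group, with colours for replicate numbers and black bars for group means; each panel has its own range of the same span. Replicate 1 lies lowest in both groups in the panels of BUB1, CDCA3, CDK1, CCNA2, KIF20A and TPX2, and TPX2 is the panel whose groups do not overlap.

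Genes of anaphase onset and mitotic exit had the highest knockdown median of the role groups, 0.40 over the 3 genes measured, and all 3 were lower in replicate 1 (median -0.33). CDC20 activates the APC/C at anaphase and is the target of the spindle checkpoint. Its values were 11.70, 11.68 and 12.02 in control and 11.94, 12.20 and 12.44 in knockdown. Only control replicate 3 overlapped the knockdown range, and the difference was 0.40 (SE 0.16, adjusted p = 0.343, and 0.0889 with the block), with a replicate difference of -0.27 (SE 0.13, adjusted p = 0.261). ESPL1, the protease separase, read 11.88, 12.06 and 12.26 in control and 12.08, 12.60 and 12.86 in knockdown. The difference was 0.44 (SE 0.20, adjusted p = 0.42, and 0.0926 with the block), higher in each pair. It was 0.27 without knockdown replicate 3 and 0.66 without knockdown replicate 1. The replicate difference was -0.47 (SE 0.13, adjusted p = 0.0828), with -0.28 within control and -0.65 within knockdown. PTTG1, the separase inhibitor securin, gave 15.03, 15.12 and 15.52 in control and 15.07, 15.37 and 15.53 in knockdown. Its groups nearly coincided, at 0.10 (SE 0.17, adjusted p = 0.845), and both replicate 1 arrays lay below the other 4, by -0.33 (SE 0.13, adjusted p = 0.169).

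Among 7 spindle genes, 6 were higher in knockdown (median 0.16) and all 7 were lower in replicate 1 (median -0.28), with no call in either comparison. TPX2 brings Aurora A to spindle microtubules. It read 12.49, 12.53 and 12.73 in control and 12.84, 12.92 and 12.96 in knockdown, so that every knockdown array was above every control array. The difference of 0.32 (SE 0.10, 95% interval 0.08 to 0.56) had an adjusted p of 0.239, and 0.121 with the block. The replicate difference of TPX2 was -0.12 (SE 0.10, adjusted p = 0.494). HMMR, a spindle protein that also binds hyaluronan, read 12.47, 12.41 and 12.60 in control and 12.43, 12.81 and 13.08 in knockdown. Knockdown replicate 1 lay within the control range, and the difference was 0.28 (SE 0.17, adjusted p = 0.549), while replicate 1 differed by -0.28 (SE 0.14, adjusted p = 0.285). Both moved with single arrays, the knockdown difference from 0.12 without knockdown replicate 3 to 0.45 without knockdown replicate 1, while the replicate difference was -0.52 with control replicate 1 left out and -0.031 with knockdown replicate 1 left out. DLGAP5, a microtubule protein of chromosome congression, read 12.11, 12.25 and 12.65 in control and 11.73, 12.39 and 12.47 in knockdown. The group means differed by -0.14 (SE 0.22, adjusted p = 0.841), and replicate 1 lay below all other arrays, by -0.52 (SE 0.14, adjusted p = 0.0768). KIF11, the motor that pushes spindle poles apart, read 12.31, 12.63 and 12.81 in control and 12.56, 12.96 and 12.71 in knockdown. Its groups overlapped, at 0.16 (SE 0.16, adjusted p = 0.724), and its replicate difference was -0.34 (SE 0.11, adjusted p = 0.118). KIF2C (a microtubule depolymerase), TACC3 (a spindle microtubule crosslinker) and NUSAP1 (a microtubule bundling protein) lay between 0.09 and 0.25 in knockdown and between -0.28 and -0.12 in replicate 1.

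Kinetochore and checkpoint genes included BUB1, the gene with the lowest adjusted p of the 37 in the replicate comparison. Of the 8 genes, 7 were higher in knockdown (median 0.14) and all 8 were lower in replicate 1 (median -0.27). BUB1, a checkpoint kinase at the kinetochore, read 11.96, 12.39 and 12.43 in control and 12.03, 12.49 and 12.64 in knockdown. Both replicate 1 arrays stood apart below the other 4, by -0.49 (SE 0.09, 95% interval -0.70 to -0.28, adjusted p = 0.0278), while the groups overlapped, at 0.13 (SE 0.19, adjusted p = 0.832). BUB1B, the checkpoint protein BUBR1, read 11.65, 11.73 and 12.05 in control and 11.76, 12.10 and 12.25 in knockdown. It was higher in knockdown in each pair, by 0.23 overall (SE 0.16, adjusted p = 0.622), and its replicate difference was -0.32 (SE 0.12, adjusted p = 0.155). CENPF, a large kinetochore protein of G2 and mitosis, read 14.50, 14.60 and 14.76 in control and 14.36, 14.74 and 15.02 in knockdown. The knockdown arrays spanned the control range on both sides, at 0.09 (SE 0.17, adjusted p = 0.875), and replicate 1 was lower in both groups, by -0.35 (SE 0.12, adjusted p = 0.145). NDC80, the microtubule-binding core of the kinetochore, read 13.27, 13.21 and 13.50 in control and 13.40, 13.53 and 13.68 in knockdown. Its differences were 0.21 in knockdown (SE 0.12, adjusted p = 0.551) and -0.14 in replicate 1 (SE 0.11, adjusted p = 0.482). NUF2 (the partner of NDC80), TTK (the checkpoint kinase MPS1), CENPA (the centromeric histone) and CENPE (a kinetochore motor) lay between -0.11 and 0.24 in knockdown and between -0.32 and -0.07 in replicate 1.

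The chromosomal passenger complex and the genes of cytokinesis gave the fifth call. All 8 were higher in knockdown, within a narrow range of 0.04 to 0.17, and all 8 were lower in replicate 1 (median -0.26). KIF20A, a motor of the central spindle, read 10.32, 10.65 and 10.96 in control and 10.44, 10.89 and 11.02 in knockdown. Replicate 1 lay below all other arrays, by -0.50 (SE 0.11, adjusted p = 0.0466), and the groups overlapped, at 0.13 (SE 0.20, adjusted p = 0.832). ANLN, the actin-binding scaffold of the cleavage furrow, read 9.55, 10.03 and 10.01 in control and 9.70, 10.16 and 9.84 in knockdown. Its replicate difference was -0.39 (SE 0.11, adjusted p = 0.0944) and its knockdown difference 0.04 (SE 0.17, adjusted p = 0.949). PRC1, which bundles the central spindle, read 13.19, 13.18 and 13.27 in control and 13.23, 13.42 and 13.46 in knockdown. The arrays of this gene lay close together, and its differences were 0.16 in knockdown (SE 0.10, adjusted p = 0.574) and -0.12 in replicate 1 (SE 0.09, adjusted p = 0.46). KIF23, the motor of the centralspindlin complex, read 12.03, 12.03 and 12.23 in control and 12.10, 12.25 and 12.38 in knockdown. It was higher in knockdown in each pair, by 0.15 overall (SE 0.11, adjusted p = 0.65), with a replicate difference of -0.15 (SE 0.10, adjusted p = 0.395). AURKB (the kinase of the passenger complex), its partners BIRC5 (survivin) and CDCA8 (borealin), and ECT2 (the exchange factor that activates RhoA at the furrow) lay between 0.07 and 0.17 in knockdown and between -0.28 and -0.24 in replicate 1.

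The 2 genes of chromosome structure, both widely used as proliferation markers, showed no difference past the test. TOP2A, the topoisomerase that untangles sister chromatids, read 12.59, 12.62 and 12.85 in control and 12.88, 12.87 and 12.79 in knockdown. Control replicate 3 fell inside the knockdown range, and the difference was 0.16 (SE 0.11, adjusted p = 0.603). Its replicate difference was near 0, at -0.04 (SE 0.11, adjusted p = 0.836), and turned to 0.05 without control replicate 1. MKI67, the antigen Ki-67 that coats mitotic chromosomes, read 11.22, 11.35 and 11.49 in control and 11.12, 11.57 and 11.39 in knockdown. Its brightest probe put the knockdown difference at 0.01 (SE 0.14, 95% interval -0.31 to 0.33, adjusted p = 0.985) and the replicate difference at -0.28 (SE 0.10, adjusted p = 0.15). The other probes of MKI67 gave 0.32 (adjusted p = 0.395) and 0.03 (adjusted p = 0.934) in knockdown, and -0.28 and -0.14 in replicate 1. Among the 6 genes with more than 1 probe, the probes disagreed in sign in knockdown for CCNB1, at 0.12 and -0.06, and for CENPF, at 0.09 and -0.0027, with no call for any of them.

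Genes outside the 38 that act in the same steps were read from lists drawn up by function. Of 66 other mitosis genes, 65 gave 88 retained probes, with a median of -0.28 in replicate 1. There, 18 of these fell and 0 rose, beside 2.03% of all probes that fell. The 18 included CENPN (-0.70, adjusted p = 0.0172) and CENPW (-0.66, adjusted p = 0.0165) of the inner kinetochore and TRIP13 (-0.56, adjusted p = 0.019), a remodeller of checkpoint complexes. With the replicate block 10 of the 88 probes were called, beside 3.34% of all probes. In knockdown 0 of the 88 were called, their median was 0.13 and 5 were higher at an unadjusted p under 0.05, near the 5.72% of all probes. With the block 1 of the 88 was called in knockdown, beside 3.78% of all probes. MAD1L1, a checkpoint protein, had the largest of these differences, 0.62 (adjusted p = 0.109). The subunits and regulators of the APC/C had medians near 0 over their 21 probes, -0.01 in knockdown and -0.03 in replicate 1. Single probes ran from -0.42 to 0.52 in replicate 1, where 5 of the 21 were lower at an unadjusted p under 0.05, beside 10.4% of all probes, and up to 0.48 in knockdown. There was 1 call, ANAPC16, which rose by 0.52 (adjusted p = 0.0223) in replicate 1. The 28 probes of condensin and cohesin, the ring complexes that shape and hold chromosomes, had a median of -0.12 in replicate 1, with NCAPG2 of condensin II the 1 gene that fell (-0.60, adjusted p = 0.0163). At an unadjusted p under 0.05, 9 of the 28 were lower and 1 higher, beside 10.4% of all probes lower. In knockdown 1 of the 28 rose, a second probe of SMC1A of cohesin, by 1.17. The 24 probes of the DREAM, MuvB and NF-Y factors had medians of 0.04 in knockdown and -0.07 in replicate 1, with 0 calls in knockdown and 1 in replicate 1, a second probe of TFDP1, which fell by 0.43 and was not called with the block. Of the 24, 8 were lower and 2 higher in replicate 1 at an unadjusted p under 0.05, beside 10.4% of all probes lower.

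Genes of S phase were also lower in replicate 1. Of 44 probes for 36 genes of DNA replication and the G1/S step, 18 fell in replicate 1 and 0 rose, beside 2.03% of all probes that fell. The median of the 44 was -0.42, and 10 were called with the replicate block, beside 3.34% of all probes. The 18 included CCNE2, cyclin E2 (-0.82, adjusted p = 0.00873), and GINS4 of the replicative helicase (-0.55, adjusted p = 0.0159). In knockdown 0 of the 44 were called and their median was 0.13. The lists differed on control replicate 2, where the 36 S phase genes had a median deviation of 0.09, the 65 other mitosis genes -0.011 and the 37 mitosis genes -0.11. Of 14 probes for G1 cyclins, kinases and inhibitors, CDKN1A, the inhibitor p21, rose in replicate 1 by 0.74 (adjusted p = 0.0103), CCND2, cyclin D2, rose by 1.07 (adjusted p = 0.00781), and CDK2 fell by 0.51 (adjusted p = 0.0411, and 0.0637 with the block). CCND2 was also the 1 probe of that list called in knockdown, where it fell by 2.33 (adjusted p = 0.025).

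**Figure D5:**
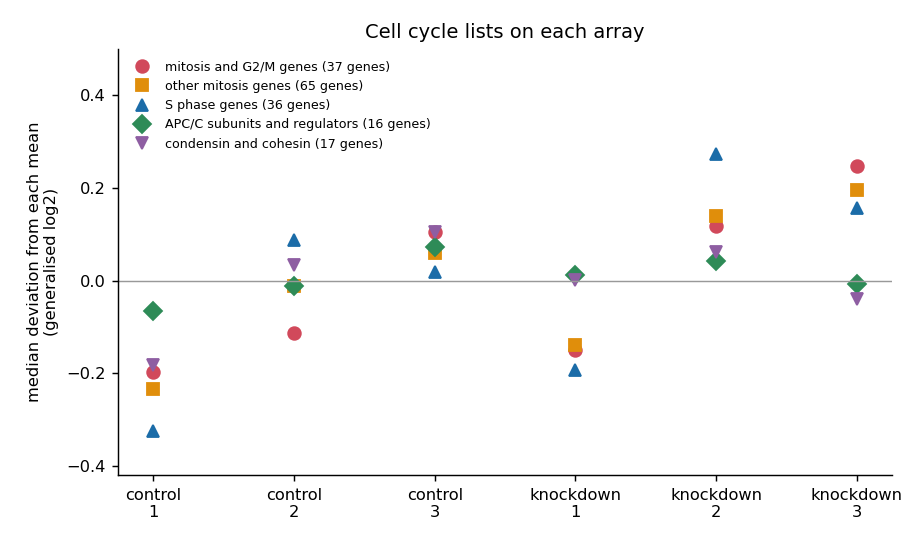
Median deviation of each list of cell cycle genes from its genes' own means on each of the 6 arrays, on the generalised log2 scale. Mitosis, other mitosis and S phase genes lie lowest on the replicate 1 arrays of both groups, and the medians of the APC/C list stay between -0.07 and 0.07 on all 6.

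Of 25 probes for 20 genes of the amino acid and stress response, 22 rose in replicate 1 and 0 fell, beside 3.66% of all probes that rose. The median of the 25 was 1.49, and some of these genes had been chosen for this contrast in earlier work on the same arrays. Their summed linear level was 375776 and 416929 on the replicate 1 arrays and 139940 to 188087 on the other 4. GPT2, an alanine aminotransferase, rose by 3.10 (adjusted p = 6.53e-05), SLC6A9, a glycine transporter, by 3.02 (adjusted p = 6.53e-05) and TRIB3, a pseudokinase induced by stress, by 2.95 (adjusted p = 0.000191). In knockdown 0 of the 25 were called, and 5 rose with the replicate block, beside 3.78% of all probes called with it. Among B-cell precursor markers, 10 of 11 genes were higher in replicate 1 (median 0.24 over the genes), with 4 of 15 probes higher and 2 lower at an unadjusted p under 0.05 and 1 call, a probe of IGLL1 that fell by 0.57. The 5 T cell probes ran from -0.68 to 0.98, with 3 higher and 2 lower, and both probes of LCK rose (0.95 for the brighter, adjusted p = 0.0107). All 3 epithelial and kidney probes were lower, and KRT18 fell (-0.53, adjusted p = 0.0408, not called with the block). The part of these lists in the lower mitosis values was not tested, and the labels give the replicates a number and do not say what separates them.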

How the data were processed

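RNA of 6 samples was hybridised singly to 1-colour Agilent arrays of catalogue and custom long non-coding RNA probes. The authors scanned and extracted the spots with Agilent Feature Extraction 10.7.1.1, per the file headers, and deposited intensity per spot; median signals not corrected for background were used here. A second, normalized table of log2 values deposited by the authors covers 27869 probes; its column medians ran from 8.29 to 8.37; its centring is not stated, and each column correlated at 0.999 or more with the values used here. Following the study's methods, variance stabilisation (own implementation of the VSN model, 0.9 of probes kept in each iteration, tested on simulated data) gave generalised log2 values, which understate differences of dim probes. Control spots and outlier spots were left out and spots of a probe averaged. Of 57176 probes, 27490 exceeded 1.1 times the 0.95 quantile of negative controls on 2 of 3 arrays of a group; the number of arrays limits the precision.

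Samples were grouped by title. Probes were named through RefSeq accessions of GRCh38.p14 (25728 of 34134 catalogue probes). Comparisons used limma 3.58.1 in R 4.3.3, two-sided, with Benjamini-Hochberg adjustment over all retained probes; intervals are moderated 95% intervals. The labels do not say what separated the replicates, so p-values measure the spread between these samples. Same-numbered samples deviated together from their group means (r = 0.426, 0.287 and 0.204 for numbers 1, 2 and 3), so the numbers were taken as pairing the samples. The main fits leave this pairing out. The fit with the replicate number as a block is given where it changes a call or count, and for some genes besides. With such pairing, replicate 1 is 1 unit against 2 in either fit, and its 2 arrays are not independent replicates. Genes were named by role: the 2 with the lowest p in each comparison, and each gene called; promoters of the genes called in the replicate comparison were added later. The members, lists and the replicate 1 comparison were chosen with earlier results of these data known. Alternatives covered background correction, scaling, filter, prior, the deposited values, slide row, averaged probes, the replicate block and leaving out each array.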

Additional observations from a re-analysis of the deposited data

How the results depend on the processing

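Over 16 alternatives for each of 22 named genes, the knockdown difference kept its direction in 330 of 352 values. No gene passed the test in any that kept more than 1 control array. Part of the 330 was fixed in advance. The filter and prior settings leave the difference unchanged, as does the block for a gene with a value on every array. Averaging probes leaves it unchanged for a gene with 1 probe. With the slide row as a term, which leaves control replicate 3 as the only control, the knockdown difference turned negative for ANLN (-0.11), BUB1 (-0.043), BUB1B (-0.013), CENPF (-0.052), KIF11 (-0.060), KIF20A (-0.18), MKI67 (-0.13), PTTG1 (-0.19) and TOP2A (-0.0068). Leaving out 1 array at a time, the knockdown difference of ANLN ran from -0.12 (without control replicate 1) to 0.14, of BUB1 from -0.022 (without control replicate 1) to 0.31, of CENPF from -0.066 (without knockdown replicate 3) to 0.26, of DLGAP5 from -0.28 to 0.093 (without knockdown replicate 1), of KIF20A from -0.026 (without control replicate 1) to 0.31 and of MKI67 from -0.094 (without knockdown replicate 2) to 0.13. DLGAP5 was also above 0 without control replicate 3 (0.018), ANLN below 0 without knockdown replicate 2 (-0.089), and MKI67 below 0 without control replicate 1 (-0.057) and without knockdown replicate 3 (-0.0064). MKI67 was -0.00093 with normexp and quantile scaling, and spike-in scaling turned CDK1 to 0.25 and DLGAP5 to 0.36, with member medians of 0.64 in knockdown and -0.68 in replicate 1, beside the shift of all probes that it brings.

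Probes called in knockdown numbered 478, and 224 with no filter, 227 with the slide row, 1038 with the replicate block, and 191 to 553 leaving out 1 array. The member count was 0 in each of these. In replicate 1, 1563 probes were called, and 764 with 75th percentile scaling, 703 with spike-in scaling, 141 with no filter, 2628 with the trend and robust prior, 781 with the slide row, 917 with the replicate block, and 344 to 789 leaving out 1 array. The 5 member probes called became 0 with 75th percentile scaling of the processed signal and with no filter, and 8 with normexp and quantile scaling and with the trend and robust prior. The member count was 2 with deposited values, 1 with the slide row, 2 with the replicate block, and 0 to 1 leaving out 1 array of replicate 2 or 3. The 75th percentile and normexp settings change the signal or background correction together with the scaling. The direction in replicate 1 turned in 4 of 352 values: TOP2A was 0.020 with the slide row and ran from -0.14 to 0.054 (without control replicate 1) leaving out 1 array, being 0.020 without control replicate 3, and PLK1 ran from -0.55 to 0.051 (without knockdown replicate 1). In this comparison the slide row term takes up control replicate 3 alone, so that setting repeats the fit without control replicate 3. As for knockdown, some of the settings could not change the difference. The interaction called 115 probes, 2 with 75th percentile scaling, 370 with no filter and, in an alternative chosen after seeing the data, 109 to 416 leaving out 1 array, with 0 member probes each time. Among the 37 genes the replicate block changed no call beyond those of CCNA2, CDCA3 and CDK1. The cause of these changes was not tested.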
